A study of Mus musculus with 30 samples.

Results

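The genes described here are 41 splicing factors of the mouse spinal cord, of 16995 genes with values. The rule that chose them uses gene names: the SR proteins (Srsf followed by a number, 11 genes), the hnRNP proteins (names starting with Hnrnp, 20 genes), the SR-like activators Tra2a and Tra2b, the SR protein kinases Clk1, Clk2 and Clk4, and 5 further genes, Srrm2, Son, Rbm25, Luc7l2 and Ddx5. Names marked as pseudogenes were left out. The set was drawn up with earlier results of these data known. All 41 genes had a value above 0 in every animal, and no further filter on low values was applied. The authors had removed genes of low expression before deposit, so genes of these families that their filter took out are not among the 41.

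Bulk RNA was sequenced from the intermediate laminae of cervical levels C5/C6 of the stroke-denervated hemicord, dissected from adult female C57BL/6 mice (C57BL/6J in the study's methods) of 2 to 3 months. Each stroke animal had a photothrombotic lesion of the right sensorimotor cortex, made by light on the skull after injection of the dye Rose Bengal. The tissue was taken 4, 7, 14, 28 or 42 days post injury (dpi). The control group had a sham operation in which the skull was not illuminated. There were 5 animals per group, apart from 4 dpi with 4, and each animal gave 1 sample. The study had chosen the samples from a larger number by scores of how far the motor cortex was ablated, of the motor deficit, of the dissection and of the RNA.

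Each value is what the authors deposited as normalized CPM (read counts relative to library size, normalized with edgeR), rounded to 0.1. Because the values are not counts, the depth behind each of them is unknown, and the error given is the spread between animals. Comparisons with sham were made in 1 limma fit of log2(value + 0.5) over all 29 animals, and p values were adjusted over 16995 genes (Benjamini-Hochberg). A gene is called changed at an adjusted p under 0.05, and called an SDEG, a significantly differentially expressed gene, when its fold change was also above 1.5 on the linear scale. The study's methods word their own limit as a log fold change, and no member would pass the same number on the log2 scale. Values summed to between 714597 and 2256910 per animal, so they were not scaled to a common total, and which scaling factor was used is not given in the sources used here. Markers of the labelled tissue were present, and the sums over markers of neurons, astrocytes and oligodendrocytes lay at 2168 or higher in every animal.

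SR proteins bind short purine-rich and other enhancer motifs in exons through RNA recognition motifs and recruit U1 and U2 components to the neighboring splice sites through a domain rich in arginine and serine (RS domain). The CLK kinases phosphorylate this domain, which releases SR proteins from nuclear speckles, the storage bodies that SRRM2 and SON hold together. hnRNP proteins coat nascent transcripts and often act in the opposite direction, by silencing exons. Many of these factors limit their own amount by splicing part of their transcripts to forms that carry a premature stop codon and are degraded, and neurons and glia depend on their balance for the splicing of channel, adhesion and myelin transcripts.

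The promoters of 3 genes are shown here, those of the SR proteins Srsf2 and Srsf3, which had the largest falls at 28 dpi, and of Srrm2, which had the largest rise. Each covers 250 bases before and 50 after the start of the gene in RefSeq (GRCm38.p6), read 5′ to 3′ on the strand of the gene. Srsf2 is at chr11:116853045-116853344 on the minus strand, Srsf3 at chr17:29032410-29032709 and Srrm2 at chr17:23802937-23803236, both on the plus strand. Capitals mark matches on either strand to the letters CCAAT, a site of the factor NF-Y, to the GC box, searched for as GGGCGG, to the core promoter element known as the TATA box, searched for as TATAAA, and to sites of ETS factors, searched for as CCGGAAG.
Srsf2: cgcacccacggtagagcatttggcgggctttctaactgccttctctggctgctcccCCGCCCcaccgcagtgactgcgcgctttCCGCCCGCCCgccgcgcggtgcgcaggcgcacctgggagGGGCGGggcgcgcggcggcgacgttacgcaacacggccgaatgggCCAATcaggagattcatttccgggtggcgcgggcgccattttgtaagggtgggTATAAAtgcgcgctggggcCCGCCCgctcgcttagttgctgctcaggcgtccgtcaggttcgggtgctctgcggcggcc
Srsf3: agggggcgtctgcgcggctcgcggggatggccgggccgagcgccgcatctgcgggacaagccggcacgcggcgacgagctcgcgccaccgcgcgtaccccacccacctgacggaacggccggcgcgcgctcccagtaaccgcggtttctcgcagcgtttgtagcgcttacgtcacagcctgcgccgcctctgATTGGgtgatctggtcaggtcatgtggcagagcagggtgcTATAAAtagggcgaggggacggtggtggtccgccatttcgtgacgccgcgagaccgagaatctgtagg
Srrm2: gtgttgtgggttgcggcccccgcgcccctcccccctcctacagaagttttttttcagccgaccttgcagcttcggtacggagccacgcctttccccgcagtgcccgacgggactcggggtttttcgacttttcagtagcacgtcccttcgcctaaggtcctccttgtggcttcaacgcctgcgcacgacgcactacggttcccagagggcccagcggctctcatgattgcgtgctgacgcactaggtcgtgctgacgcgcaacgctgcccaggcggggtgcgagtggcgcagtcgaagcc
The Srsf2 window held 5 GC boxes, 2 of them sharing 2 bases, with 1 CCAAT match and 1 TATA box. The Srsf3 window held 1 CCAAT match and 1 TATA box. The first of the 2 RefSeq windows of Srrm2, the one printed, held none of the 4 motifs. It lies inside the deposited span of the gene (chr17:23790662-23824741), so the RefSeq start used here differs from the start of that span. RefSeq gave a promoter for 38 of the 41 genes (not for Clk1, Hnrnpll and Hnrnpul2). CCAAT was found in 22 of the 38 promoters (57.9%) and in 42.6% of the promoters of all genes with values. The GC box was found in 76.3% against 65.1%, the TATA box in 15.8% against 9.19%, and the ETS site in 18.4% against 17.4%. Among the 20 promoters of genes that fell at 28 dpi, 5 held a TATA box (25.0%), and among the other 18 promoters 1 did (5.56%). These are matches of letters in short windows, and no test was made of the differences.

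The question of the comparisons with sham is which of these genes changed in the denervated laminae, and when. At 4, 7 and 14 dpi, limma called no splicing factor (all genes 0.106%, 0.0294% and 0.00588%). At an unadjusted p under 0.05 there were 4, 3 and 2 of them at these times, where 5.14%, 5.84% and 11.6% of all genes passed that limit. At 28 dpi 23 of the 41 were called, 21 lower and 2 higher. The count was 15 without A3-3 or A4-4 of 28 dpi, 12 when the 28 dpi and sham animals were fitted alone, and 0 once ribosomal RNA entered as a covariate. Ribosomal RNA was above the sham range in all 28 dpi animals but A4-1, so that covariate overlaps with the group. Of all genes 24.9% were called at 28 dpi, 13.0% lower and 11.9% higher, and this share was 12.9% without sham animal A12-1, 13.2% without A3-3 of 28 dpi and up to 29.6% (without A3-1 of 28 dpi) when single animals were left out. Among the splicing factors the share called lower was thus 51.2%, and the share called higher 4.88%. Their median log2 fold change was -0.23, and that of all genes was -0.00481. These levels depend on the scaling: with every animal rescaled to the same sum, 39 members fell and none rose, the median of all genes was -0.72, and the median of the members relative to it was -0.28 (-0.22 as deposited). The falls were small, from 11.7% to 25.7% on the fitted scale. Only Srrm2 passed the SDEG limits, 2.44% of the members against 4.64% of all genes. At 42 dpi no splicing factor was called by limma (all genes 0.0235%), 7 had an unadjusted p under 0.05 (14.8% of all genes did), and their median log2 fold change was -0.01. The moderated F test over all 5 time points called 23 of them, and 31.6% of all genes. That count was 14 without A3-3 and 15 without A4-4 of 28 dpi, and 13 without the animals with most ribosomal RNA.

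**Figure D1:**
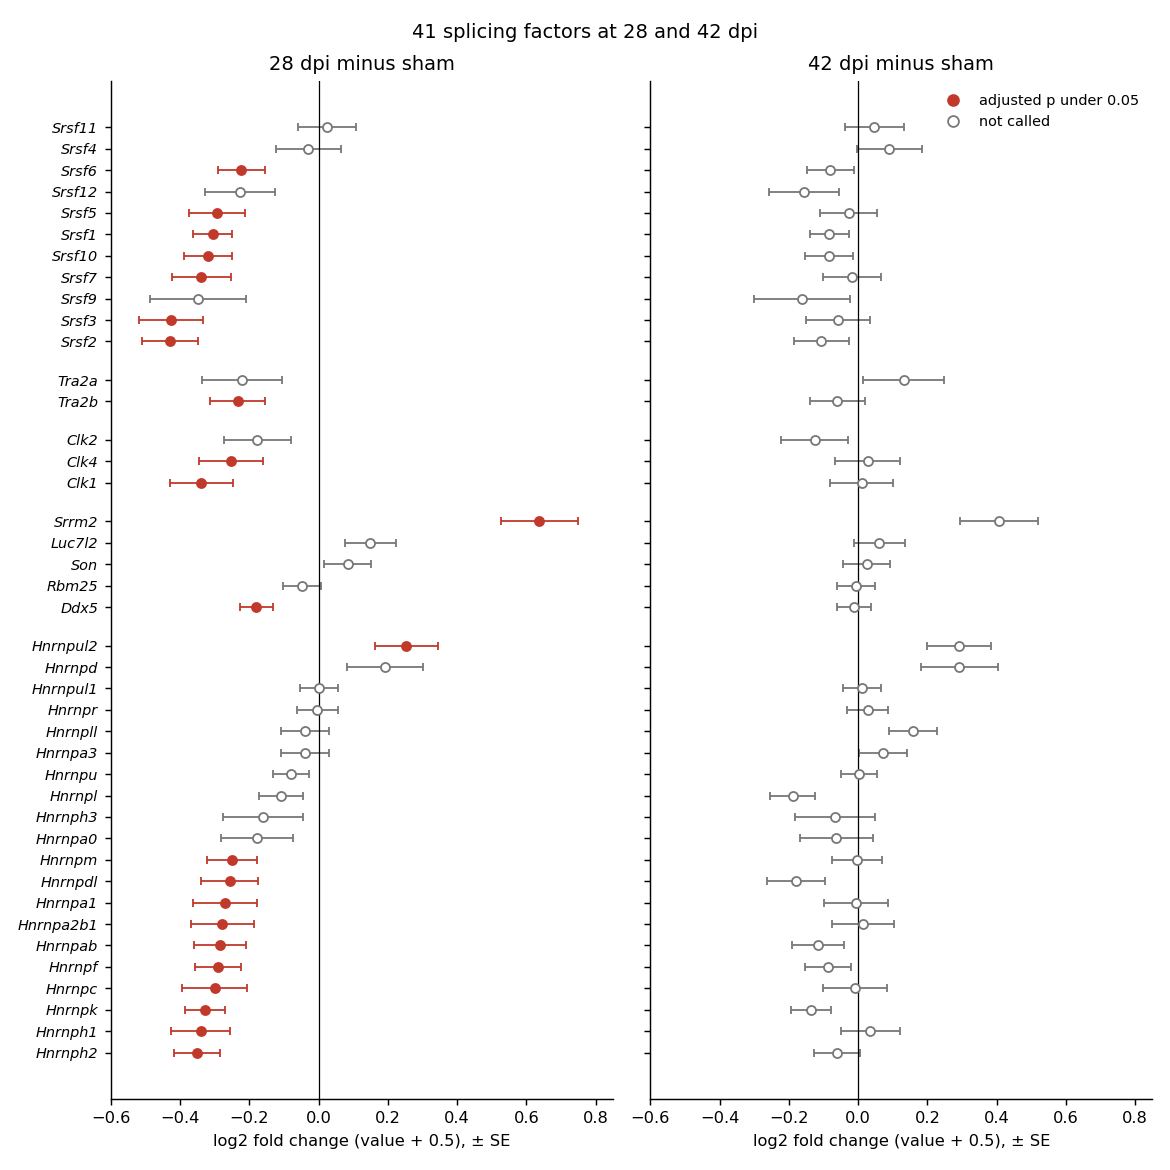
Log2 fold change against sham of each of the 41 splicing factors at 28 dpi (left) and 42 dpi (right), on the log2(value + 0.5) scale, with bars of 1 SE from the limma fit and genes grouped by family (SR proteins at the top, hnRNP proteins at the bottom). Filled red points are called at an adjusted p under 0.05: 21 lie below 0 and 2 above at 28 dpi, and none is called at 42 dpi.

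Of the 11 SR proteins, 7 fell at 28 dpi, none rose and 4 did not pass the test (all genes 13.0% lower, 11.9% higher). The list had a median log2 fold change of -0.31. The fallen genes were Srsf1, Srsf2, Srsf3, Srsf5, Srsf6, Srsf7 and Srsf10, which between them have roles in constitutive splicing, exon choice and mRNA export.

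Srsf2 (SC35, an SR protein of nuclear speckles that binds exonic enhancers; ENSMUSG00000034120, chr11:116849901-116853094) had the largest fall. Its sham values were 42.2, 39.1, 46.3, 44.7 and 43.6, and its 28 dpi values were 36.8, 27.9, 36.3, 32.7 and 27.1. All 28 dpi animals were below all sham animals. The mean went from 43.2 ± 2.73 (SD, n = 5) to 32.2 ± 4.55 (SD, n = 5), a log2 fold change of -0.43 (SE 0.081, limma adjusted p = 0.00145). At 42 dpi the values were 43.8, 39.6, 40.9, 37.9 and 38.2, and overlapped those of sham.

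Srsf3, the smallest SR protein and one that links splicing to mRNA export (ENSMUSG00000071172, chr17:29032673-29043366), had sham values of 59.6, 56.7, 60.9, 60.2 and 67.7. Its 28 dpi values were 55.4, 35.1, 53.8, 44.2 and 40.8, again with no overlap, but 2 animals (55.4 and 53.8) lay close to the sham range and 3 far below it. The log2 fold change was -0.43 (SE 0.093, adjusted p = 0.00287). Srsf1, the founding SR protein (ENSMUSG00000018379, chr11:88047373-88053755), was less scattered. It measured 55.8, 52.6, 56.9, 51.6 and 55.7 in sham animals and 49.8, 38.6, 44.0, 44.8 and 43.4 at 28 dpi. The groups did not overlap, and the fold change was -0.31 (SE 0.056, adjusted p = 0.00139). For Srsf2, Srsf3 and Srsf1 the exact two-sided permutation test of 5 against 5 animals gave p = 0.00794, the smallest it can give.

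**Figure D2:**
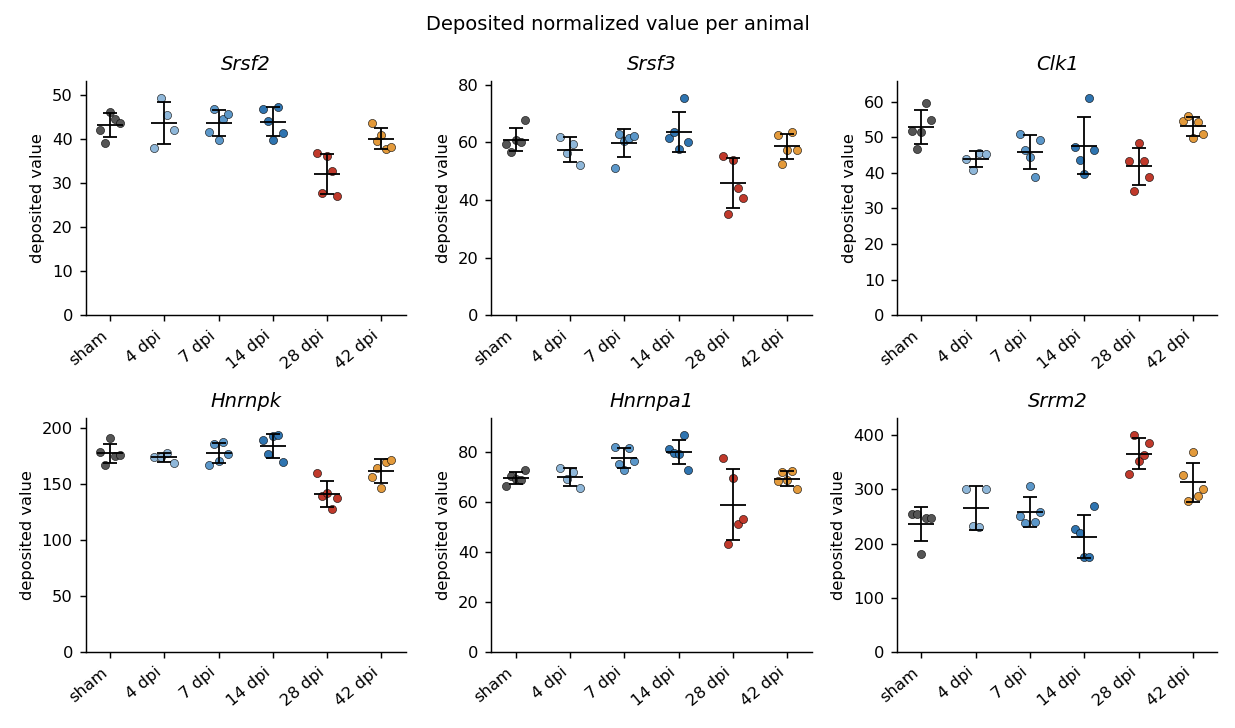
Deposited value (normalized CPM, linear axis from 0) of Srsf2, Srsf3, Clk1, Hnrnpk, Hnrnpa1 and Srrm2 in each animal by group, with the mean and 1 SD. At 28 dpi the values of Srsf2, Srsf3 and Hnrnpk lie below and those of Srrm2 above all 5 sham animals, while those of Clk1 and Hnrnpa1 overlap with sham.

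Srsf10, an SR protein that represses splicing when dephosphorylated (ENSMUSG00000028676), was the most even at 28 dpi. It measured 32.3, 32.1, 31.6, 33.3 and 31.6 there and 38.8, 36.7, 46.6, 37.5 and 42.5 in sham animals, a log2 fold change of -0.32 (SE 0.068, adjusted p = 0.00244). All of its 28 dpi values were below the sham range. Srsf7, which has a zinc knuckle and takes part in export (ENSMUSG00000024097), measured 28.5, 28.3, 38.4, 31.3 and 36.2 in sham animals. At 28 dpi it measured 30.3 in animal A3-1 and between 23.6 and 24.9 in the other 4, so that 1 animal overlapped with sham (log2 fold change -0.34, SE 0.084, adjusted p = 0.00592).

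Srsf5 fell from 77.3 ± 7.15 to 63.6 ± 11.4 (SD, n = 5 each, log2 fold change -0.29, adjusted p = 0.0116). It was 75.9 in 2 animals at 28 dpi and 52.5, 58.2 and 55.4 in the other 3, so the sham range of 70.5 to 87.2 held 2 animals and not the others. Srsf6 had the same split, with 51.0 and 51.2 in 2 animals and 43.1, 40.5 and 39.3 in the other 3, against 49.0 to 56.9 in sham animals (log2 fold change -0.22, adjusted p = 0.0173). The exact permutation tests of Srsf5 and Srsf6 gave p = 0.0635 and 0.0556.

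The 4 SR proteins that did not pass the test were Srsf9, Srsf12, Srsf4 and Srsf11. Srsf9 had a log2 fold change of -0.35 (SE 0.14, adjusted p = 0.0642) at mean values of 10.4 and 8.16. Srsf12, which counteracts other SR proteins, measured 8.1 to 8.3 in sham animals and 6.1 to 7.7 at 28 dpi, without overlap (log2 fold change -0.23, SE 0.10, adjusted p = 0.0963). Srsf4 had a log2 fold change of -0.03 (SE 0.094). Srsf11, which helps to include the microexons of neurons, measured 44.7, 47.0, 50.7, 47.6 and 49.1 in sham animals. At 28 dpi it was above that range in 3 animals (55.0, 54.6 and 51.5) and below it in 2 (41.8 and 42.0), with a log2 fold change of 0.02 (SE 0.084, adjusted p = 0.853).

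Tra2a and Tra2b activate exons with GAA-rich enhancers and form a complex with SR proteins. Tra2b (ENSMUSG00000022858, chr16:22244549-22266005) measured 37.7, 35.4, 39.5, 36.7 and 41.6 in sham animals and 34.1, 32.8, 35.0, 30.1 and 30.0 at 28 dpi. Every 28 dpi value was below the sham range, the highest one (35.0) only just, and the gene fell by 0.23 on the log2 scale (SE 0.079, adjusted p = 0.031, exact permutation p = 0.00794). Tra2a had a similar fold change, -0.22, and a larger error (SE 0.12, adjusted p = 0.16). Its 28 dpi values of 31.6, 27.4, 42.0, 35.4 and 26.3 lay on both sides of its sham mean of 37.9 ± 6.05 (SD, n = 5).

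Of the 3 kinases, Clk1 and Clk4 fell at 28 dpi and Clk2 did not pass the test (all genes 13.0% lower, 11.9% higher). Clk1 and Clk4 are paralogs whose transcripts are known to be held in the nucleus with retained introns. Clk1 (ENSMUSG00000026034, chr1:58410189-58424066) measured 51.7, 46.7, 51.6, 59.5 and 54.7 in sham animals and 43.3, 34.9, 48.5, 43.3 and 38.9 at 28 dpi. A single value at 28 dpi, 48.5, was in the sham range, and the log2 fold change was -0.34 (SE 0.091, adjusted p = 0.00926). Clk1 was also below all sham animals at 4 dpi, with 43.8, 40.8, 45.5 and 45.3, where its log2 fold change of -0.26 had an unadjusted p of 0.0106 and an adjusted p of 0.626 in limma. At 4 dpi 2 splicing factors, Clk1 and Hnrnpu, had no overlap with sham on the low side (0.612% of all genes).

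Clk4 measured 33.1, 29.7, 36.3, 36.6 and 35.0 in sham animals and 33.4, 23.7, 32, 29.4 and 25.2 at 28 dpi. Its log2 fold change of -0.25 had an adjusted p of 0.0469, close to the limit, and the call was lost when any 1 of 14 of the 29 animals was left out (range of the log2 fold change -0.31 to -0.19). Clk2 had a log2 fold change of -0.18 (SE 0.097, adjusted p = 0.176) with means of 13.0 and 11.5. At 7 dpi Clk2 measured 10.3 to 11.6 in all 5 animals, below its sham range of 12.1 to 13.9 (0.583% of all genes were below sham in this way), with a log2 fold change of -0.24, an unadjusted p of 0.0167 and an adjusted p of 0.796 in limma.

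Among Srrm2, Son, Rbm25, Luc7l2 and Ddx5, 1 gene rose at 28 dpi, 1 fell and 3 did not pass the test (all genes 13.0% lower, 11.9% higher). Srrm2, a scaffold of nuclear speckles (ENSMUSG00000039218, chr17:23790662-23824741), measured 254.7, 253.8, 180.4, 247.7 and 246.3 in sham animals. At 28 dpi its values were 329.0, 400.2, 352.0, 363.2 and 386.5, all above sham, and the mean rose from 237 ± 31.6 to 366 ± 28.1 (SD, n = 5 each). The log2 fold change was 0.64 (SE 0.11, adjusted p = 0.00139, exact permutation p = 0.00794). Without sham animal A12-1, which had the value of 180.4, it was 0.54, still called but under the SDEG limit. In A3-1 and A4-1, the 28 dpi animals with Srsf5 and Srsf6 within the sham range, Srrm2 was above sham too (329.0 and 352.0). Rescaled to the same sum, which shifts the median of all genes to -0.72, Srrm2 had a log2 fold change of -0.15 and was not called, and relative to that median it was 0.57 higher (0.64 as deposited).

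Srrm2 was also above all sham animals at 42 dpi, with 327.2, 278.7, 369.7, 288.3 and 300.8, but its log2 fold change of 0.41 did not pass the test (adjusted p = 0.107). Son, the other scaffold of speckles and a protein needed to splice weak sites, measured 298.0, 306.9, 274.3, 337.9 and 309.0 at 28 dpi and 251.8 to 336.6 in sham animals (log2 fold change 0.08, SE 0.069, adjusted p = 0.378). The U1-associated proteins Luc7l2 and Rbm25, which take part in the choice of 5′ splice sites, had log2 fold changes of 0.15 (SE 0.073, adjusted p = 0.131) and -0.05 (SE 0.055, adjusted p = 0.546).

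Ddx5 (p68), a DEAD-box RNA helicase of the spliceosome and of transcription, was the most abundant member per exon length, at 50.6 per kb in sham animals (ENSMUSG00000020719, chr11:106780355-106789185). It measured 297.4, 284.2, 298.5, 287.8 and 293.9 in sham animals and 288.2, 238.4, 261.5, 248.4 and 256.5 at 28 dpi. Of the 28 dpi animals 4 were below the sham range. The fall was small against the tight spread of sham (SD 6.18), at -0.18 on the log2 scale (SE 0.049, adjusted p = 0.0102).

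Of the 20 hnRNP proteins, 10 fell at 28 dpi, 1 rose and 9 did not pass the test, with a list median of -0.21 (all genes 13.0% lower, 11.9% higher). Those that fell were Hnrnpa1, Hnrnpa2b1, Hnrnpab, Hnrnpc, Hnrnpdl, Hnrnpf, Hnrnph1, Hnrnph2, Hnrnpk and Hnrnpm, with log2 fold changes between -0.35 and -0.25. The gene that rose was Hnrnpul2.

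Hnrnpk, which binds C-rich stretches in RNA and DNA (ENSMUSG00000021546, chr13:58391142-58403343), was the second most abundant member per exon length (27.4 per kb). It measured 178.4, 166.6, 190.9, 174.6 and 175.9 in sham animals and 159.7, 139.5, 141.6, 127.8 and 137.7 at 28 dpi. The groups did not overlap, and the log2 fold change was -0.33 (SE 0.057, adjusted p = 0.00139). Hnrnph2 and Hnrnph1, close paralogs that bind runs of G, both fell. Hnrnph2 (ENSMUSG00000045427, chrX:134601179-134607060) measured 56.2, 50.8, 62.7, 54.2 and 59.9 in sham animals and 50.6, 41, 49.7, 40.5 and 40.9 at 28 dpi (log2 fold change -0.35, SE 0.066, adjusted p = 0.0015). All its 28 dpi values were below sham, the highest one (50.6) only just. Hnrnph1 went from 92.9 ± 9.17 to 73.5 ± 9.56 (SD, n = 5 each), with 2 animals at 28 dpi (82.9 and 83.9) inside the sham range (log2 fold change -0.34, adjusted p = 0.00618).

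Hnrnpa1, the best known antagonist of SR proteins at exon silencers (ENSMUSG00000046434, chr15:103240432-103244955), was the most scattered at 28 dpi. Its sham values were 66.4, 70.2, 69.2, 68.8 and 72.6. At 28 dpi it was 77.5 in A3-1, above the sham range, 69.3 in A4-1, within it, and 43.2, 51.0 and 53.0 in the other 3, far below it. The log2 fold change of -0.27 was called (SE 0.093, adjusted p = 0.0334), but the exact permutation test gave p = 0.151. Hnrnpa2b1, a related protein with a role in RNA transport and sorting, had the same pattern with 72.7 and 76.0 in the same 2 animals and 53.5, 51.5 and 53.5 in the others, against 64.9 to 81.8 in sham (log2 fold change -0.28, adjusted p = 0.025, exact permutation p = 0.0952). Hnrnpdl fell by 0.26 (adjusted p = 0.0248, exact permutation p = 0.0873) after values at 7 and 14 dpi that were above sham at an unadjusted p only (log2 fold changes 0.19 and 0.19, adjusted p = 0.84 and 0.399). Hnrnpc, which binds uridine-rich stretches of nascent RNA, fell by 0.30 (SE 0.094, adjusted p = 0.0208), from 68.3 ± 10.8 to 55.2 ± 7.34 (SD, n = 5 each).

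The hnRNP proteins that did not pass the test at 28 dpi were Hnrnpa0, Hnrnpa3, Hnrnpd, Hnrnph3, Hnrnpl, Hnrnpll, Hnrnpr, Hnrnpu and Hnrnpul1. Hnrnpl, which binds CA repeats, had a log2 fold change of -0.11 (SE 0.064, adjusted p = 0.213), and Hnrnpu, a large nuclear scaffold protein, one of -0.08 (SE 0.052, adjusted p = 0.265). The values nearest to sham were those of Hnrnpul1, with means of 49.7 ± 3.21 and 49.7 ± 3.20, and of Hnrnpr, with 58.8 ± 5.08 and 58.5 ± 2.55 (SD, n = 5 each). Hnrnpul2, a relative of Hnrnpu, rose by 0.25 (SE 0.091, adjusted p = 0.0414). It measured 64.2, 76.7, 69.6, 69.9 and 69.3 in sham animals and 80.1, 96.0, 92.5, 67.9 and 83.1 at 28 dpi, with 4 of 5 animals above the sham range. The call of Hnrnpul2 was lost in 7 of 15 other settings, among them the fit of only the 2 groups, and without any 1 of A3-3, A4-1 and A4-4 of 28 dpi and A11-1, A12-1, A12-2 and A12-3 of sham (log2 fold change 0.20 to 0.33 without each animal). Hnrnpd (AUF1), which binds AU-rich elements in mRNA, had a log2 fold change of 0.19 (SE 0.11, adjusted p = 0.199).

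Other calls at 28 dpi also depended on single animals. Srsf5 was not called without A3-3 of 28 dpi (log2 fold change -0.36 to -0.23 without each animal), and Srsf6 was not called without A4-3 or A4-4 of 28 dpi or sham animal A12-1 (-0.27 to -0.18). Tra2b (-0.26 to -0.20) and Hnrnpc (-0.38 to -0.23) lost the call without A3-3, A4-3 or A4-4 of 28 dpi or without A12-1 or A12-3 of sham. Hnrnpa2b1 (-0.36 to -0.22) and Hnrnpa1 (-0.38 to -0.17) lost it without any of these 5 animals or A12-2 of sham, and Hnrnpa1 also without A11-4 of sham. Hnrnpdl lost it without A4-3 or A4-4 of 28 dpi or A11-1 of sham (-0.35 to -0.18). Srsf1, Srsf2, Srsf3, Srsf7, Srsf10, Clk1, Srrm2, Ddx5, Hnrnph1, Hnrnph2 and Hnrnpk were called whichever single animal was left out.

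The animals at 28 dpi were not alike. The median over the 41 genes of the log2 difference from the sham mean was -0.03 in A3-1 and -0.07 in A4-1. It was -0.29 in A3-3, -0.28 in A4-3 and -0.36 in A4-4. In the other groups it lay between -0.07 and 0.08 in every animal. In A3-3, A4-3 and A4-4 the numbers of splicing factors below the sham range were 27, 31 and 32 of 41 (65.9%, 75.6% and 78.0%), where 32.7%, 29.4% and 29.2% of all genes were below it. In A3-1 and A4-1 they were 10 and 16 (24.4% and 39%, all genes 16% and 19.0%). In all 5 animals, 9 splicing factors were below sham, Srsf1, Srsf2, Srsf3, Srsf10, Srsf12, Tra2b, Hnrnpf, Hnrnph2 and Hnrnpk, 22.0% of the members against 3.75% of all genes. Srrm2 alone was above sham in all 5 (6.15% of all genes).

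Several other measures moved at 28 dpi. The ribosomal RNA Rn18s-rs5 ranged from 30321 to 52929 in sham animals. At 28 dpi it was 44755 in A4-1, 291950 in A4-3, 323192 in A4-4, 417970 in A3-1 and 779160 in A3-3. High ribosomal RNA occurred without a low median of the splicing factors in A3-1, in 14 dpi animals A5-3 and A6-3 (419050 and 817780, medians -0.03 and -0.02) and in 42 dpi animal A3-4 (457302, median -0.05). All 42 dpi animals were above the sham range of Rn18s-rs5, from 78737 to 457302. Their medians of the splicing factors lay between -0.05 and 0.03, and A1-1 of 42 dpi had 282927 and a median of 0.03. With the log2 value of Rn18s-rs5 as a covariate no gene at all was called by limma at 28 dpi, and the median over the splicing factors was -0.15. Rn18s-rs5 was above the sham range in all 28 dpi animals but A4-1. This fit therefore cannot cleanly separate ribosomal RNA from the group. With the same covariate 18 splicing factors were lower and 3 higher at 28 than at 14 dpi (median -0.17), and 39.5% of all genes were called. Without the 2 animals with the highest Rn18s-rs5, A6-3 and A3-3, 12 splicing factors fell and 1 rose at 28 dpi, with a median of -0.19, and 13.3% of all genes were called.

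**Figure D3:**
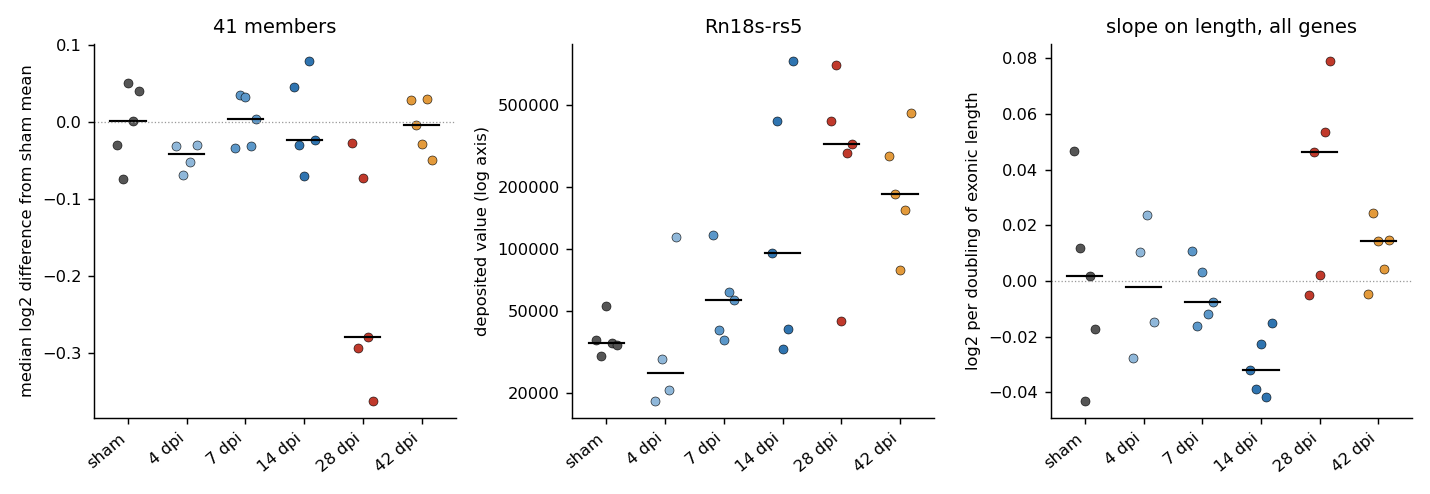
Each point is an animal and each bar a group median. Left, the median over 41 splicing factors of the log2 difference from the sham mean, which is -0.28 or lower in 3 of the 5 animals at 28 dpi and between -0.07 and 0.08 in all other animals. Middle, the deposited value of Rn18s-rs5 on a log axis. Right, the slope of all genes' log2 difference from sham on log2 exon length, which at 28 dpi is highest in A4-4 (0.079).

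Exon length moved with the result as well. Over all genes, the slope of the log2 difference from sham per doubling of exon length was 0.046, 0.054 and 0.079 in A3-3, A4-3 and A4-4, and -0.0051 and 0.0022 in A3-1 and A4-1. The sham animals ranged from -0.043 to 0.047. Across the 41 genes, the correlation of log2 exon length with the log2 fold change at 28 dpi was r = 0.53 (rho = 0.51), and across 16919 genes found in GENCODE M21 r = 0.14 (rho = 0.24). These points are genes measured in the same animals and not independent replicates. Of the 20 shortest members (1653 to 5797 bases), 13 fell (65.0%), against 16% of all genes in that range of length. Of the 21 longest (5842 to 22199 bases), 8 fell (38.1%, against 6.47% of all genes in that range). With a smooth trend on exon length and GC content removed in each animal, 25 members fell and 1, Srrm2, rose (0.48), and the share of all genes called was 27.8%.

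**Figure D4:**
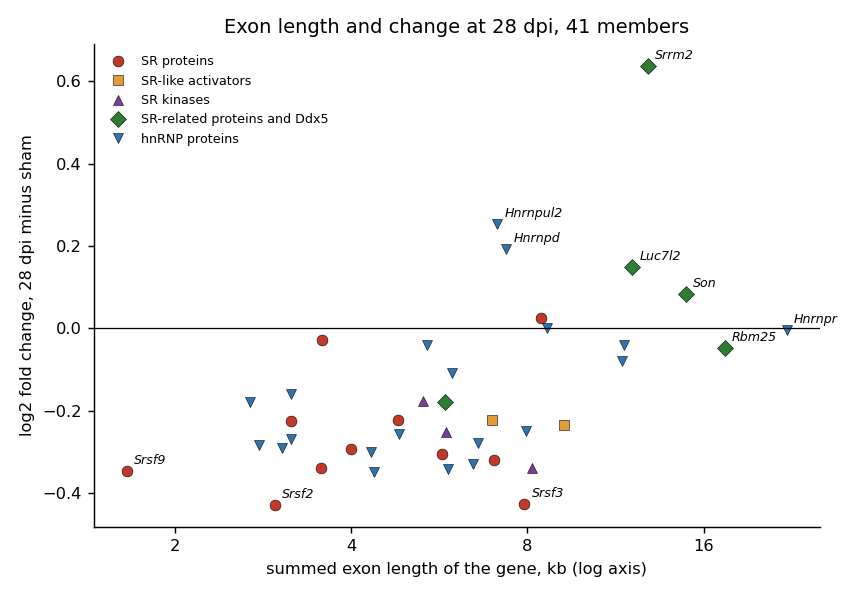
Log2 fold change at 28 dpi against sham (y axis) of the 41 splicing factors by the summed exon length of the gene in kb (x axis, log scale), with a symbol for each family. The genes longer than 10 kb (Srrm2, Luc7l2, Son, Rbm25, Hnrnpr and others) lie between -0.08 and 0.64, and the lowest points, Srsf2 and Srsf3, have 2958 and 7899 bases.

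Markers of cell types were set beside these results. The sum over 5 oligodendrocyte markers was 5126 to 7801 in sham animals and 3736 to 5503 at 28 dpi, and 3 of the 5 fell. It was 4100 to 6455 at 4 dpi, 4447 to 6165 at 7 dpi, 5224 to 6509 at 14 dpi and 4389 to 5232 at 42 dpi. No splicing factor was called against sham at these other times. The sum over 8 neuronal markers was 2453 to 3022 in sham animals and 2168 to 2703 at 28 dpi, and 1 rose and 1 fell. Of 5 astrocyte markers 1 rose and 2 fell, of 5 microglial markers 1 rose, and of 3 endothelial and 3 meningeal fibroblast markers 1 each rose. The astrocyte sum was 2297 to 2837 in sham animals and 2716 to 3191 at 28 dpi. The endothelial sum was 54.9 to 80.5 in sham animals and 63.3 to 110 at 28 dpi. In whole tissue, fewer cells of a type cannot be told apart from less RNA per cell. Beyond the values given, the part of ribosomal RNA, exon length and cell makeup in the falls of the splicing factors was not tested.

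Time points next to 28 dpi were compared with it directly. These comparisons use the same 28 dpi animals as the one with sham and are not independent of it. Against 14 dpi, 20 splicing factors were lower and 3 higher at 28 dpi (all genes 43.0% called, 21.9% lower). With every animal rescaled to the same sum none of these 23 calls was left, and with the same sum without ribosomal RNA 15 were called. The largest differences on the log2 scale were 0.80 for Srrm2, -0.48 for Srsf3 and Hnrnph2, -0.47 for Hnrnpa1 and -0.45 for Srsf2 and Hnrnpdl. Against 28 dpi, 7 were higher and none lower at 42 dpi (all genes 1.94% called, 1.45% higher). The 7 genes were Hnrnph1 (0.38, adjusted p = 0.0269), Srsf3 (0.37, adjusted p = 0.0389), Clk1 (0.35, adjusted p = 0.043), Srsf2 (0.32, adjusted p = 0.0386), Srsf7 (0.32, adjusted p = 0.0446), Hnrnph2 (0.29, adjusted p = 0.028) and Srsf1 (0.22, adjusted p = 0.0386). The labels place animals of both times in unit A3 (A3-1 and A3-3 of 28 dpi, A3-4 of 42 dpi), and with the unit as a random block 13 were higher and none lower (4.39% of all genes called). Every other unit lies within a single group, so this block can hardly separate unit from time point. At an unadjusted p under 0.05, 22 were higher and 1, Srrm2, lower, where 12.3% and 8.82% of all genes were. The number of calls between 28 and 42 dpi was 0 with both same-sum scalings, with no trend and in a fit of only the 2 groups. It also depended on single animals: it was 0 without A3-3, A4-3 or A4-4 of 28 dpi or without A1-1, A1-2 or A1-4 of 42 dpi, 1 without A3-4 of 42 dpi, and 17 and 16 without A3-1 and A4-1 of 28 dpi.

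At 42 dpi, where none was called against sham, 3 splicing factors did not overlap with it. Srrm2 and Hnrnpul2 were above all sham animals (2.21% of all genes were), and Hnrnpdl was below all of them with 47.8, 51.1, 49.7, 53.5 and 50 against a lowest sham value of 53.7 (1.10% of all genes were). Hnrnpul2 measured 92.7, 80.4, 93.6, 82.1 and 80.1, a log2 fold change of 0.29 (adjusted p = 0.134). Hnrnpl and Hnrnpk were at -0.19 (adjusted p = 0.162) and -0.14 (adjusted p = 0.262). At 14 dpi Hnrnpa1 was above all sham animals, with 81.2, 79.4, 79.1, 86.6 and 72.8, a log2 fold change of 0.20 (adjusted p = 0.415), where 1.11% of all genes were.

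Other parts of the splicing machinery were counted in the same way at 28 dpi, by their calls and medians alone, to be read against the 13.0% of all genes called lower and the 11.9% called higher. Of 40 core spliceosome genes, 16 fell and 1 rose, with a median of -0.21, beside the -0.23 of the 41 genes. Among them were Snrpd1, an Sm ring protein (-0.57, SE 0.17, adjusted p = 0.0195), U2af1, which reads the 3′ splice site (-0.40, SE 0.11, adjusted p = 0.0142), and Sf3b1, the largest SF3B subunit (-0.20, SE 0.053, adjusted p = 0.0088), while the branch point protein Sf1 rose (0.24, SE 0.081, adjusted p = 0.0309). Of 18 hnRNP-class genes under other names, 1 fell and 2 rose, with a median of 0.02. Raly, a relative of Hnrnpc, fell (-0.33, SE 0.079, adjusted p = 0.0048), and Pcbp2, which binds C-rich stretches of RNA, rose past the SDEG limits (0.61, SE 0.17, adjusted p = 0.0103).

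Of 24 other SR-related and speckle genes, 4 fell (Luc7l, Luc7l3, Rnps1 and Rsrp1) and 3 rose (Srrm1, Scaf1 and Scaf8), with a median of -0.07, shares near those of all genes. Of 7 other kinases of SR proteins, Clk3 and Prpf4b fell and Dyrk1b rose (0.56, SE 0.11, adjusted p = 0.0016), and the median was -0.01. Of the 23 tissue-enriched splicing regulators with values (of 25 listed), 4 fell (Rbfox1, Mbnl2, Khdrbs3 and Elavl4) and 5 rose (Celf3, Nova2, Rbfox2, Mbnl3 and Srrm4), with a median of 0.01. Nova2, a neuronal regulator of alternative exons, had the largest rise among them, from 9.26 to 18.4 (0.97, SE 0.17, adjusted p = 0.0014). Of 15 genes of nonsense-mediated decay and the exon junction, the junction core genes Eif4a3 and Rbm8a fell, a share near that of all genes, none rose, and the median was 0.03. Of 39 genes of ribosomal RNA, mitochondrial RNA and long nuclear RNA, 7 rose and 3 fell (median 0.01). No gene of these lists was called at 4, 7 or 14 dpi, apart from the SR protein kinase Srpk3, which fell at 7 dpi (-0.65). At 42 dpi 1 was called, in the list of ribosomal, mitochondrial and long nuclear RNA.

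**Figure D5:**
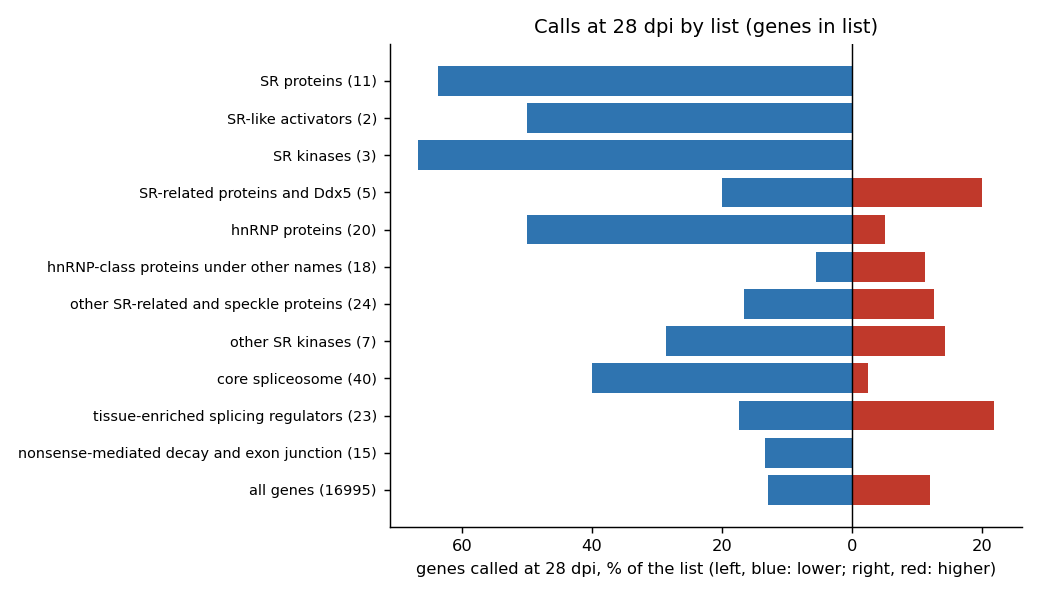
Share of the genes of each list called at 28 dpi, in percent of the list, lower to the left and higher to the right, with the number of genes in parentheses and all 16995 genes at the bottom (13.0% lower, 11.9% higher). The SR proteins (7 of 11 lower), hnRNP proteins (10 of 20) and core spliceosome (16 of 40) have the longest bars to the left among the lists of 5 or more genes.

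The annotation of the members was set beside that of other genes. All 41 genes are protein coding in GENCODE M21, with a median exon length of 5842 bases and a median GC content of 43.3%, against 4556 bases and 49.7% for the 14439 protein-coding genes with values. Of the 41, 29 (70.7%) have at least 1 annotated transcript subject to nonsense-mediated decay, against 27.3% of protein-coding genes, and 32 (78.0%) have a retained-intron transcript, against 56.0%. The members also have more annotated transcripts, a median of 9 against 5, and the shares were not adjusted for this number. Among the 21 genes that fell 14 had a decay transcript (66.7%), and among the other 20 there were 15 (75.0%). The deposited values sum all transcripts of a gene, so productive and degraded forms cannot be told apart.

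Some of these genes share sequence with other annotated genes, as pseudogene copies or by overlap, between which the counting could split reads. The share of a gene's 31-base words that occurs in another annotated gene was 66.2% for Hnrnpf (its largest partner being the processed pseudogene Gm6430), 41% for Srsf4 (Gm12992), 29.9% for Hnrnpa1 (Gm10052), 28.1% for Hnrnpa3 (Gm5641) and for Hnrnpab (Phykpl, which overlaps it), 24.5% for Luc7l2, 23.1% for Srsf2 (Mettl23), 22.0% for Hnrnph2, and 21.1% for Ddx5 and for Hnrnpk. The values of these genes are uncertain for that reason, by an amount that was not measured. The share was 1.22% for Srsf1, 1.01% for Clk1, 2.43% for Srsf7, 3.14% for Srrm2 and 3.20% for Hnrnph1, and 0 for Srsf6, Srsf9 and Hnrnpa0.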

How the data were processed

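Gene values of 29 mice in 6 groups were analysed. The labels list 30 animals, and 1 animal of 4 dpi, which the study excluded as an outlier, was not used here. Per the study's methods, total RNA was depleted of ribosomal RNA (Ribo-Zero Gold), and SALMON and Tximport gave gene-level read estimates from a mouse (mm10) transcript set. The score values the authors deposited are CPM normalized with edgeR (version 3.14.0 with R 3.4.1 in the submitters' processing notes), rounded to 0.1, with genes of low expression removed. Raw reads were not analysed here, so depth is unknown. The deposited table also holds the authors' fold changes, p-values and calls, which were not used.

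The values were fitted as log2(value + 0.5) with limma 3.58.1 (empirical Bayes moderation with a mean-variance trend, 1 mean per group) in R 4.3.3, with Benjamini-Hochberg adjustment over 16995 genes. Single values were also compared by exact two-sided permutation tests. Python 3.11.15, numpy 2.4.6, scipy 1.17.1 and pandas 2.3.3 were used. Exon lengths, transcript classes and shared words came from GENCODE M21 (mm10), in which 16919 genes were found, promoters from RefSeq (GRCm38.p6), and gene positions from the deposited table (mm10). The fit was checked on simulated data.

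The members and lists were chosen with earlier results of these data known. Members given in full were 25 named anchors, at most 12 called members with the largest change at each time point, and the 2 largest rises and falls at each time point, 30 in all. Values given for other members (Srsf4, Srsf9, Srsf12, Hnrnpr, Hnrnpul1 and those without overlap) and for genes of other lists were chosen after they were seen. Not every called gene of the other lists is reported here by name. Alternatives were other pseudocounts, scalings, filters and models, a covariate for ribosomal RNA, a length and GC correction, the unit number of the labels as a random block, and leaving out each animal.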

Additional observations from a re-analysis of the deposited data

Results flagged for a closer look

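A single animal stood far from the rest of its group (Dixon's test at the 95% level) in 9 of 186 groups of 4 or 5 values (the 30 genes given in full and the median over the 41 genes, in 6 groups), and chance flags about 1 in 20. At 7 dpi, animal A7-2 was low for Hnrnpa0 (23.6, the others 31 to 32.6) and Srsf3 (51.3, the others 60.6 to 63.1) and high for Son (321, the others 268.3 to 276.5), and A8-1 was low for Srsf1 (49.7, the others 53.2 to 54.1). At 28 dpi, A3-1 was high for Srsf7 (30.3, the others 23.6 to 24.9). Sham animal A12-1 was low for Srrm2 (180.4, the others 246.3 to 254.7), 14 dpi animal A6-2 high for Srsf6 (55.9, the others 52.6 to 53.1), and at 42 dpi A1-1 was high for Hnrnph1 (107.7, the others 88.2 to 93.7) and A3-4 low for Srsf11 (39.5, the others 51.0 to 55.3).

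The level of 23 splicing factors differed between 14 and 28 dpi by limma's test of that difference, with adjusted p under 0.05 for each (43.0% of all genes were called). None was called with every animal rescaled to the same sum. Among the genes given in full, the log2 difference was 0.80 for Srrm2, 0.28 for Hnrnpd and 0.24 for Hnrnpul2. It was -0.18 for Ddx5, -0.22 for Srsf10 and Tra2b, -0.25 for Srsf6, -0.28 for Hnrnpa0 and Srsf1, -0.31 for Hnrnpa2b1, -0.32 for Hnrnpc and Hnrnph1, -0.38 for Hnrnpk and Srsf7, -0.41 for Srsf5, -0.45 for Hnrnpdl and Srsf2, -0.47 for Hnrnpa1, and -0.48 for Hnrnph2 and Srsf3. Between 28 and 42 dpi the level of 7 differed (1.94% of all genes were called), and none was called without any 1 of A3-3, A4-3 and A4-4 of 28 dpi and A1-1, A1-2 and A1-4 of 42 dpi, or with the same sum in every animal. The log2 difference was 0.38 for Hnrnph1, 0.37 for Srsf3, 0.35 for Clk1, 0.32 for Srsf2 and Srsf7, 0.29 for Hnrnph2 and 0.22 for Srsf1.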

How the results depend on the processing

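No alternative called a splicing factor at 4, 7, 14 or 42 dpi against sham. At 28 dpi 23 were called, 21 of them lower. Rescaling every animal to the same sum gave 39, all lower (also 39 past the SDEG limits), and the same without ribosomal RNA gave 36, all lower (23 past the limits). These scalings move the median of all genes to -0.72 and -0.36, and the members' median relative to it was -0.28 and -0.25 (-0.22 as deposited). They lower most genes, so the counts of 39 and 36 are not particular to the members. The share of all genes called under these scalings is not given here. A fit of only the 2 groups gave 12, with 11 lower. Ribosomal RNA as a covariate gave 0, also past the SDEG limits and for falls, and 0 of all genes. That covariate overlaps with the groups compared, so this setting cannot cleanly separate ribosomal RNA from the group. Leaving out the animals with most ribosomal RNA, chosen after the values were seen, gave 13, with 12 lower. The fold limit left 1, and 0 past the SDEG limits remained with the length and GC trend removed. Leaving out each animal gave 15 to 24 called, 14 to 23 lower, and 0 to 1 past the SDEG limits. The count was 15 without A3-3 or A4-4 of 28 dpi.

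Between 14 and 28 dpi, 23 became 0 with the same sum and 15 with the same sum without ribosomal RNA. The F test's 23 became 40 with the same sum, 13 without the animals with most ribosomal RNA, and 14 to 24 without each animal (14 without A3-3, 15 without A4-4). The share of all genes called by the F test in these settings is not given here. The 7 called between 28 and 42 dpi were the least stable. They became 2 with quantile normalization, 4 with median centring, 0 with both same-sum scalings, no trend, only the 2 groups, or without the animals with most ribosomal RNA, 13 with a mean value of at least 10 or the unit as a block, 2 with ribosomal RNA as a covariate, 1 with the length and GC trend removed or without the 42 dpi animal of a shared unit (also chosen after the values were seen), and 0 to 17 without each animal. The cause of these moves was not tested.

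Since the same-sum scalings shift all genes down, small positive values must turn negative there. Log2 fold changes at 28 dpi did so with the same sum for Hnrnpd (-0.59), Hnrnpul2 (-0.53), Luc7l2 (-0.64), Son (-0.71), Srrm2 (-0.15) and Srsf11 (-0.76), and without ribosomal RNA for Hnrnpd (-0.19), Hnrnpul2 (-0.13), Luc7l2 (-0.24), Son (-0.30) and Srsf11 (-0.36). Relative to the shifted median of all genes, Hnrnpd, Hnrnpul2, Luc7l2, Son and Srrm2 stayed positive under both scalings (0.13, 0.19, 0.085, 0.016 and 0.57 with the same sum), and Srsf11 was at -0.035 and -0.0017. With the length and GC trend removed, Son was at -0.11 and Srsf11 at -0.078. Srsf11 was at -0.017 without the animals with most ribosomal RNA and between -0.019 and 0.079 without each animal. Of the other values of single genes, 1189 kept direction and side of the limit, 100 lost the call and 15 gained it. The deposited values give no depth, so what depth limits is unknown. The unit numbers in the labels are not shared across groups except A3 (28 and 42 dpi). No paired analysis was possible because no animal number occurs in 2 groups and no comparison shares more than 1 unit; the unit was fitted as a random block instead.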
